A study of Homo sapiens with 3 samples.

Results

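The data describe 10 genes that control passage through the G1 phase of the cell cycle in Molm13 cells after 6 h with pyrvinium. They are the cyclins CCND2, CCND3, CCNE1 and CCNE2, the cyclin-dependent kinases CDK4, CDK6 and CDK2, and the CDK inhibitors CDKN1A, CDKN1B and CDKN2C. The genes were taken by name, for their role in G1, through their Entrez identifiers from the 25702 genes listed. All 10 had more than 10 counts in every library and are among the 12879 genes tested.

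In the G1 phase, growth signals raise the D-type cyclins, which activate CDK4 and CDK6. These kinases begin the phosphorylation of RB1 and its relatives, which releases E2F factors, and E2F then drives genes of DNA replication together with the E-type cyclins. Cyclin E activates CDK2, which completes the phosphorylation of RB1 and carries the cell into S phase. The protein p18 (CDKN2C) of the INK4 family blocks CDK4 and CDK6, whereas p21 (CDKN1A) and p27 (CDKN1B) of the CIP/KIP family bind cyclin-CDK complexes and inhibit CDK2 in particular. In myeloid leukemia cells the D cyclins and CDK6 are known to act downstream of growth factor receptors such as FLT3.

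Molm13 is a human acute myeloid leukemia line with an internal tandem duplication in FLT3. Cells received DMSO, the vehicle, or pyrvinium at 50 nM or 100 nM for 6 h, and each of the 3 conditions has 1 library. The same study measured cell cycle distribution and cyclin E1 protein in this line, which gives the reason for looking at these transcripts. The libraries hold between 22677038 and 24075123 counts, of which the 10 genes took 0.1398% to 0.144%. All 10 myeloid markers that were checked had at least 10 counts in each library, and the summed markers of T cells, B cells, red cells and epithelial or stromal cells stayed at or below 1.34 CPM (counts per 1000000 counts of the scaled library size) for each class. With 1 library per condition there is no replicate check, so every interval and test below covers counting error only and compares libraries, not conditions.

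At 100 nM, CCNE2 fell by 40.8%, CCNE1 fell by 39.8% and CDK2 fell by 36.4%, while CCND3 and CDK4 fell by less. The inhibitors p21 (CDKN1A) and p18 (CDKN2C) and the kinase CDK6 rose, and CCND2 and CDKN1B did not pass the test. Against DMSO, 5 of the 10 genes were lower and 3 were higher at 100 nM by the exact binomial test (adjusted p of at most 0.05 with no fold threshold). Among all 12879 genes tested, 22.0% were lower and 21.1% higher by the same rule. A gene with more counts passes this rule at a smaller change. All 10 genes averaged 500 counts or more, as did only 7087 of the genes tested. The shares of all genes, here and below, are thus not matched for depth. At 50 nM, 4 of the 10 genes were lower and 2 higher, against 13.9% and 14.3% of all genes. None of the 10 genes reached 2-fold in either comparison, where 2.2% of all genes were called at 100 nM and 0.955% at 50 nM. At 1.5-fold, 3 of the 10 were lower at 100 nM (2.4% of all genes) and 0 were higher (4.31% of all genes). At 50 nM 0 of the 10 passed 1.5-fold, where 0.885% of all genes were lower and 1.69% higher. The median log2 fold change of the 10 genes was -0.08 at 50 nM and -0.08 at 100 nM, beside 0.0007 and -0.0023 over all genes tested. These libraries cannot give the spread between replicates. When edgeR's exact test was given an assumed coefficient of variation of 0.1, 2 of the 10 (CCNE1 and CCNE2) passed at 100 nM, where 1.89% of all genes did. With 0.2, 0 of the 10 passed, against 0.0932% of all genes.

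**Figure D1:**
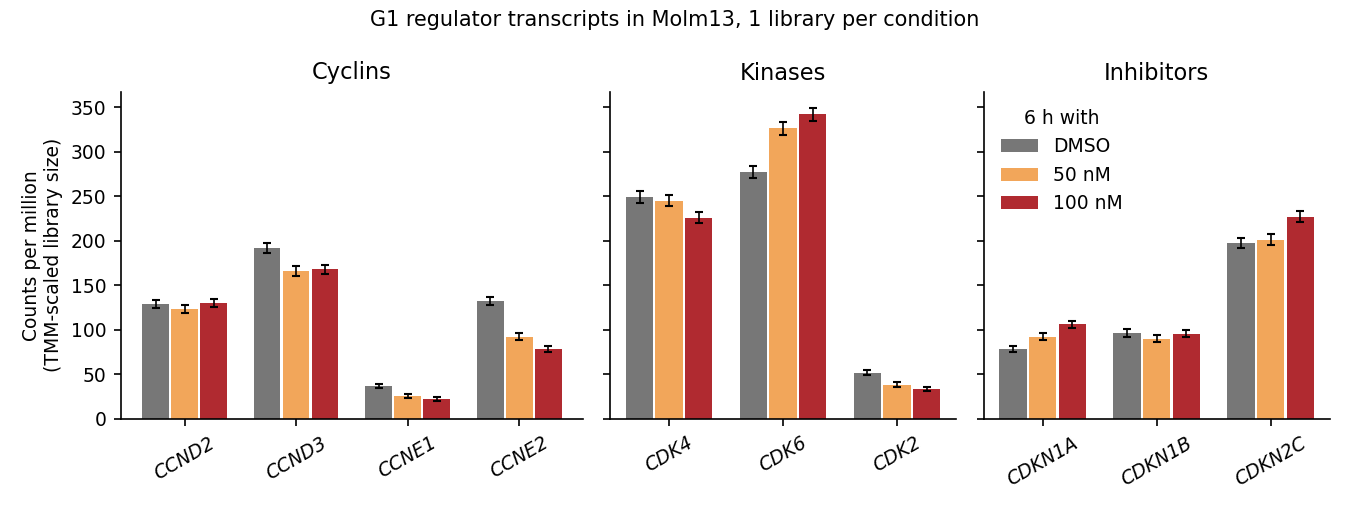
Levels in CPM on TMM-scaled library sizes (vertical axis) of the 10 genes in the DMSO, 50 nM and 100 nM libraries, with cyclins, kinases and inhibitors in separate panels. Bars are single libraries and error bars are 95% exact Poisson intervals of the counts. CCNE1, CCNE2 and CDK2 step down from DMSO to 100 nM, whereas CDK6 and CDKN1A step up.

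The E-type cyclins showed the largest falls. CCNE1 encodes cyclin E1 (Entrez 898, chromosome 19 of hg19 from 30302901 to 30315219, plus strand, 12 listed exons). The DMSO library held 852 counts of CCNE1, the 50 nM library 575 and the 100 nM library 533, which correspond to 36.8, 25.4 and 22.1 CPM. The level thus fell by 30.9% at 50 nM and fell by 39.8% at 100 nM. On the log2 scale this was -0.53 at 50 nM (95% counting interval -0.69 to -0.38) and -0.73 at 100 nM (-0.89 to -0.58), with adjusted p = 1.57e-10 and 2.66e-19 by the exact binomial test with Benjamini-Hochberg adjustment. CCNE2 encodes cyclin E2 (Entrez 9134, chromosome 8 from 95892452 to 95907482, minus strand, 12 listed exons). It had 3068, 2086 and 1890 counts in the same order, or 132, 92.2 and 78.4 CPM. The 50 nM value on the log2 scale was -0.52 (interval -0.60 to -0.44) and the 100 nM value -0.76 (-0.84 to -0.67), with adjusted p = 8.33e-72 for the latter by the same exact test. For both genes the DMSO library was highest, and the counting intervals of the treated libraries lay below that of the DMSO library. In bulk RNA, fewer cells of a cell cycle phase and less RNA per cell cannot be told apart, which holds for every gene described here.

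The proportion between the E-type cyclins did not differ beyond counting error. Per gene length, CCNE1 made up 27.6% of the summed CCNE1 and CCNE2 level in the DMSO library (95% Clopper-Pearson interval 26.09% to 29.15%), 27.5% at 50 nM and 27.9% at 100 nM. The log2 change of the CCNE1 to CCNE2 count ratio at 100 nM was 0.02, with an exact interval from -0.16 to 0.20. In the deposited gene models, 270 exonic bases of CCNE2, 9.9% of its length, overlap INTS8 on the opposite strand, and the sources do not say if reads were counted by strand. INTS8, a subunit of the Integrator complex, had 5674, 5003 and 5102 counts, and at 100 nM its log2 value was -0.21 (interval -0.27 to -0.16). How far reads of INTS8 enter the CCNE2 counts was not tested.

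CDK2, the catalytic partner of cyclin E (Entrez 1017, chromosome 12 from 56360556 to 56366568, plus strand, 7 listed exons), was read 1197 times in the DMSO library, 862 times at 50 nM and 792 times at 100 nM, or 51.6, 38.1 and 32.8 CPM. The log2 values were -0.44 for 50 nM (interval -0.57 to -0.31) and -0.65 for 100 nM (-0.78 to -0.52), with adjusted p = 5.29e-22 at 100 nM by the exact binomial test. CDK2 was thus highest in the DMSO library, and both treated libraries lay below it. The log2 change of the CCNE2 to CDK2 count ratio at 100 nM was -0.10, with an interval from -0.26 to 0.05 that spans no change. The falls of the cyclin and of its kinase could not be separated at this depth.

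CCNE2 fell further at 100 nM but is not among the 7 members matched to an entry of RefSeq's promoter table. The 250 bases before the start of CCNE1 are shown because CCNE1 has the largest fall at 100 nM among these 7. The sequence is from GRCh38.p14, chr19:29811741-29811990 on the plus strand, 5′ to 3′, with matches to the GC box letters GGGCGG on either strand in capitals.
CCNE1: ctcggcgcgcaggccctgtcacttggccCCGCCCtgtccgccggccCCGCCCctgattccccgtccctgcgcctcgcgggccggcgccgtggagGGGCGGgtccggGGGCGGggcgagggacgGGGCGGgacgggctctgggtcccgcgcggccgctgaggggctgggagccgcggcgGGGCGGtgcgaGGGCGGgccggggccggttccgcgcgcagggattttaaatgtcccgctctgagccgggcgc
This stretch is 81.2% G and C and holds 7 such matches, while 42.6% of the 35116 promoters in the table hold at least 1. A match to an E2F motif was searched with the letters TTTCCCGC, TTTGGCGC, TTTCGCGC and TTTGCCGC on both strands. None was found in this window, and 2.79% of all promoters hold one. Promoter entries, 12 in all, were matched for 7 of the 10 genes, and not for CCND2, CCNE2 and CDK2. The letters CCAAT, on either strand, were also searched and are held by 32.0% of all promoters, and CCNE1, CDK4 and CDKN1A have no match. The GC box letters were found in at least 1 entry of each of the 7 matched genes, whether they fell, rose or did not pass the test. A match is a description of the letters only.

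Of the D-type cyclins, CCND2 and CCND3 moved less than the E-type cyclins. CCND3 (Entrez 896, chromosome 6 from 41902671 to 42016610, minus strand, 6 listed exons) encodes cyclin D3, and had 4437 counts in DMSO, 3762 with 50 nM and 4050 with 100 nM, or 191, 166 and 168 CPM. It fell at both doses, with log2 values of -0.20 for 50 nM (interval -0.27 to -0.14) and -0.19 for 100 nM (-0.25 to -0.13). Between the treated libraries its log2 fold change was 0.02 (interval -0.05 to 0.08). CCND2 (Entrez 894, chromosome 12 from 4382902 to 4414522, plus strand, 5 listed exons) encodes cyclin D2, and had 2992, 2798 and 3137 counts, or 129, 124 and 130 CPM. It did not pass the test at either dose, with log2 fold changes of -0.06 (interval -0.14 to 0.01) and 0.01 (-0.06 to 0.08). CCND1, which encodes the remaining D-type cyclin, had 91, 52 and 55 counts and fell at 100 nM, with a log2 value of -0.78 and a wide interval from -1.29 to -0.28.

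Cyclin D3 was the major D-type transcript. Per gene length, CCND2 made up 19.85% of the summed D-type level in the DMSO library (interval 19.12% to 20.6%), 21.52% with 50 nM (20.7% to 22.36%) and 22.21% with 100 nM (21.42% to 23.03%). The count ratio of CCNE2 to CCND3, which does not depend on the library scaling, went from 0.691 in DMSO to 0.554 at 50 nM and 0.467 at 100 nM. The log2 change of this ratio at 100 nM was -0.57, with an interval from -0.67 to -0.46. CCNE2 thus fell further than CCND3 between these libraries.

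The kinases that partner D-type cyclins differed in direction. CDK6 (Entrez 1021, chromosome 7 from 92234235 to 92465941, minus strand, 9 listed exons) had 6419 counts in DMSO, 7392 with 50 nM and 8254 with 100 nM, or 277, 327 and 342 CPM. It rose at each dose, with log2 fold changes of 0.24 (interval 0.19 to 0.29) and 0.31 (0.26 to 0.35). CDK4 (Entrez 1019, chromosome 12 from 58142003 to 58146164, minus strand, 8 listed exons) had 5780, 5548 and 5453 counts, or 249, 245 and 226 CPM. The 50 nM value of -0.02 did not pass (interval -0.08 to 0.03), and at 100 nM CDK4 fell by 0.14 on the log2 scale (interval -0.19 to -0.09). CDK6 was thus lowest in the DMSO library, and CDK4 was lowest at 100 nM. At 100 nM, the log2 change of the CDK6 to CDK4 count ratio was 0.45 (interval 0.38 to 0.52).

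CDK4 remained the more abundant of the 2 kinases per gene length, at 173, 170 and 157 CPM per kilobase against 23.5, 27.8 and 29.1 for CDK6. The CDK6 gene model is 11762 bases long and that of CDK4 1443 bases, so their order by level depends on the division by length. CDK6 made up 11.99% of the summed level per length in the DMSO library (interval 11.62% to 12.37%), 14.05% with 50 nM (13.63% to 14.48%) and 15.66% with 100 nM (15.21% to 16.12%). In the deposited gene models, 24 exonic bases of CDK4, 1.66% of its length, overlap TSPAN31 on the opposite strand, which had 223, 282 and 295 counts.

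**Figure D2:**
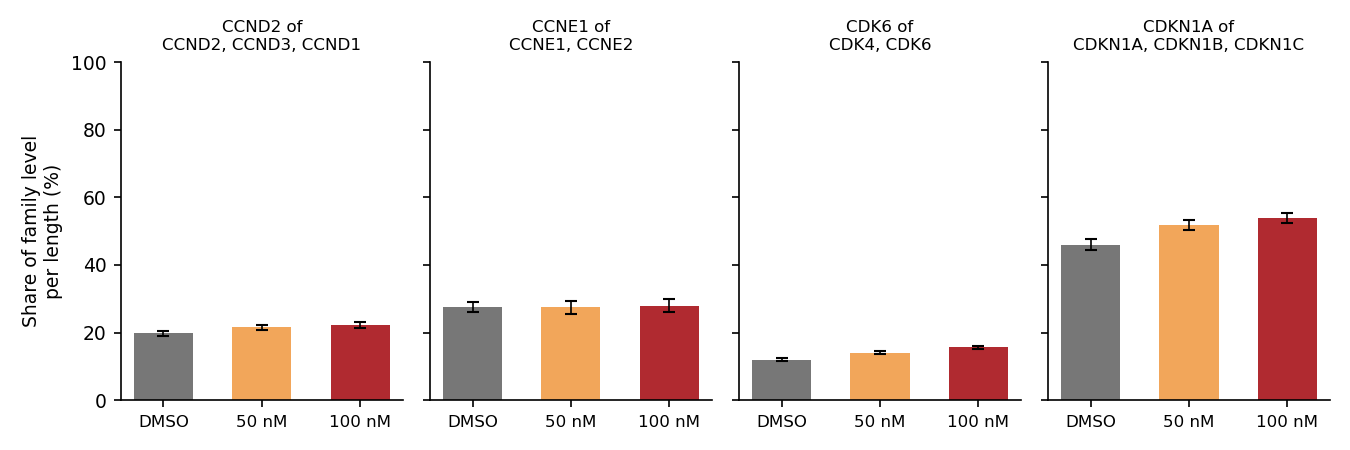
Share of 1 gene in the summed level per gene length of its family (vertical axis, percent) in the DMSO, 50 nM and 100 nM libraries. Error bars are 95% Clopper-Pearson intervals of the counts converted to level per length. The CCNE1 share stays between 27.5% and 27.9%, while CDK6 goes from 11.99% to 15.66% and CDKN1A from 46.05% to 53.95%.

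CDK4 is a known target of MYC, whose dimers bind the E-box letters CACGTG, and the 250 bases before its start are shown for that motif. The sequence is from GRCh38.p14, chr12:57752311-57752560 on the minus strand, 5′ to 3′, with CACGTG in capitals. The motif reads the same on both strands.
CDK4: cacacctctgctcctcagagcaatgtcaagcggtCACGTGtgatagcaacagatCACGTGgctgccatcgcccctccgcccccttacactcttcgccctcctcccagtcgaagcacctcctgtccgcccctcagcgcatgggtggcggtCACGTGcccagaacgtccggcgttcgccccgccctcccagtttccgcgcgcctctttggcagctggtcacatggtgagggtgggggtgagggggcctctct
The stretch holds 3 E-boxes, at positions -216, -196 and -101 relative to the start, and 6.34% of all promoters in the table hold at least 1. Among the other matched genes, entries of CDKN2C, which rose at 100 nM, also hold CACGTG. MYC itself had 21175, 28215 and 33596 counts and rose at 100 nM by 0.61 on the log2 scale (interval 0.58 to 0.63), whereas CDK4 fell.

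Among the inhibitors, CDKN1A showed the largest rise. CDKN1A encodes p21, which p53 and other stress factors are known to induce (Entrez 1026, chromosome 6 from 36646459 to 36655109, plus strand, 3 listed exons). It had 1809 counts in DMSO, 2085 with 50 nM and 2557 with 100 nM, or 78.1, 92.1 and 106 CPM. The log2 values were 0.24 for 50 nM (interval 0.15 to 0.33) and 0.44 for 100 nM (0.35 to 0.53), the latter a level 35.9% above that of DMSO, with adjusted p = 2.83e-22 by the exact binomial test. The 3 libraries stood in the order of the dose, without overlap of their counting intervals. CDKN2C encodes p18, an inhibitor of CDK4 and CDK6 (Entrez 1031, chromosome 1 from 51434367 to 51440309, plus strand, 3 listed exons). It had 4579, 4555 and 5471 counts, or 198, 201 and 227 CPM, and only the 100 nM library stood above the others. For CDKN2C the 50 nM value was 0.03 (interval -0.03 to 0.09) and the 100 nM value 0.20 (0.14 to 0.26) on the log2 scale.

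CDKN1B encodes p27, which FOXO factors are known to induce (Entrez 1027, chromosome 12 from 12870302 to 12875305, plus strand, 3 listed exons). It had 2232, 2037 and 2300 counts, or 96.3, 90.0 and 95.4 CPM, and did not pass the test at either dose. The values were -0.10 for 50 nM (interval -0.18 to -0.01) and -0.01 for 100 nM (-0.10 to 0.07) on the log2 scale. Per gene length, CDKN1A made up 46.05% of the summed CIP/KIP level in DMSO (interval 44.5% to 47.6%), 51.87% with 50 nM (50.34% to 53.41%) and 53.95% with 100 nM (52.54% to 55.35%). p21 was below p27 per length in the DMSO library and above it at 100 nM, and at 50 nM their level intervals overlapped. The remaining member of the family, CDKN1C, had 1, 1 and 0 counts. CDKN2A and CDKN2B, the INK4 genes for p16 and p15, had 0 counts in each library, where a count of 0 allows up to 0.132 CPM (3 counts). CDKN2D, which encodes p19, had 244, 247 and 269 counts and did not pass the test. CDKN3, a phosphatase that acts on CDK2, fell to a log2 value of -0.19 at 100 nM, so that of the 3 tested genes among the 6 other D cyclin and inhibitor genes 2 fell and 0 rose.

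The sequence before the start of CDKN1A is shown beside that of CCNE1 because CDKN1A had the largest rise among the 10 genes. It is from GRCh38.p14, chr6:36678464-36678713 on the plus strand, 5′ to 3′, with matches to GGGCGG on either strand in capitals.
CDKN1A: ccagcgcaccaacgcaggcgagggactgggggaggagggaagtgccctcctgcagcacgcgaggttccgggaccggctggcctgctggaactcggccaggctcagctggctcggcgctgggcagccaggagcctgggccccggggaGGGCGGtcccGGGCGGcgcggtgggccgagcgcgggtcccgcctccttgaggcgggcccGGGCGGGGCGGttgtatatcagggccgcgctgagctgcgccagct
It holds 4 matches, of which 2 share a base, and no match to the E2F letters or to CACGTG.

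The transcript of p21 was also set against those of the cyclin E module, which p21 inhibits. The count ratio of CDKN1A to CCNE2 was 0.590 in DMSO, 0.9995 at 50 nM and 1.35 at 100 nM, a log2 change of 1.20 at 100 nM (exact interval 1.08 to 1.32). The count ratio of CDKN1A to CDK2 was 1.51, 2.42 and 3.23, a log2 change of 1.10 (interval 0.94 to 1.25). All gene pairs set against each other as ratios were picked after their values were seen, and these 2 pair the member with the largest rise with members that fell most, so the direction follows from the choice.

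**Figure D3:**
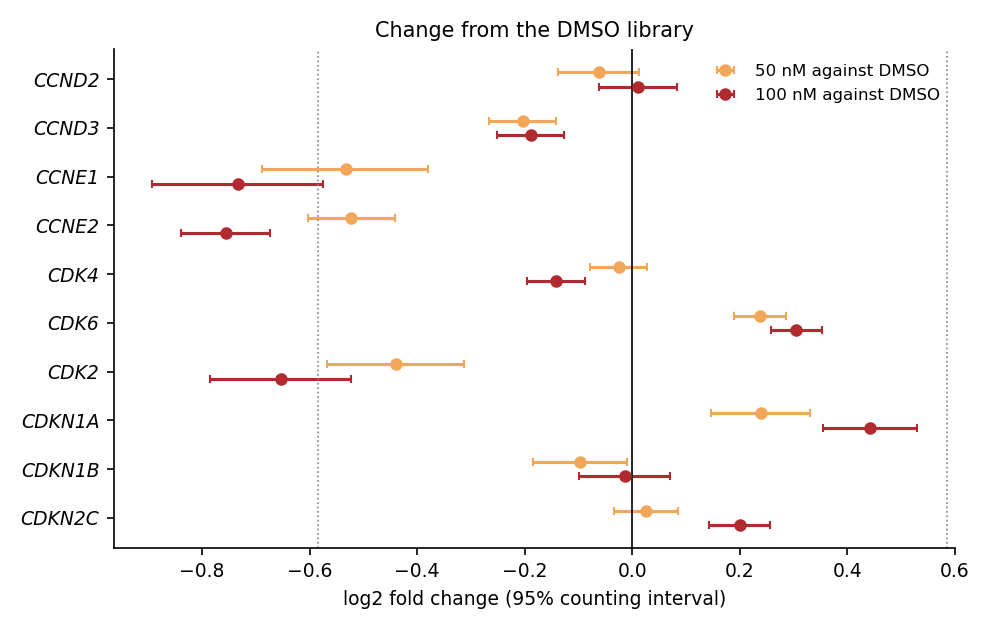
Log2 fold change of each gene against the DMSO library (horizontal axis) at 50 nM and 100 nM, with 95% Clopper-Pearson counting intervals. Dotted lines mark 1.5-fold. At 100 nM CCNE1, CCNE2 and CDK2 lie beyond 1.5-fold on the lower side, and CDKN1A at 0.44 is the highest.

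Ordered by level per length in the DMSO library, CDK4 came first at 173 CPM per kilobase, followed by CDKN2C at 79.7 and CCND3 at 79.0, whose counting intervals overlap. CCNE2 followed at 48.5, CDKN1B at 39.9 and CDKN1A at 34.1. At the low end, CDK6 at 23.5 and CDK2 at 22.5 could not be separated, nor could CCND2 at 19.8 and CCNE1 at 18.5. At 100 nM, CCNE2 had moved from the 4th to the 7th place, at 28.7 CPM per kilobase, beside CDK6 at 29.1 with overlapping intervals, and CDKN1A had moved from the 6th to the 4th place, at 46.3.

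Within a reference set of 7087 genes whose mean was 500 counts or more, few differed as much as the cyclin E module. At 100 nM, 0.254% of these genes were as low as or lower than CCNE2, 0.409% as low as CCNE1 and 0.72% as low as CDK2. At 50 nM the shares were 0.282%, 0.24% and 0.663%. The rise of CDKN1A was less unusual, with 3.94% of these genes at or above it at 100 nM, and for CDK6 the share was 9.3%. The fall of CCND3 at 100 nM was matched or exceeded by 20.1% of these genes and that of CDK4 by 27.4%. These shares describe the libraries and are not tests.

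**Figure D4:**
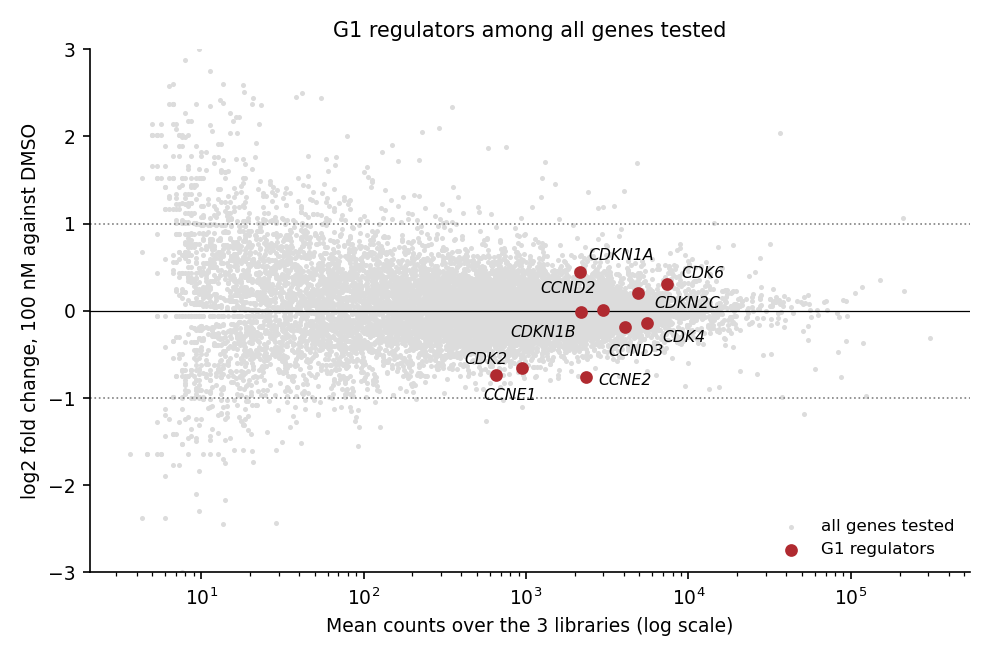
Log2 fold change at 100 nM against DMSO (vertical axis) by mean counts over the 3 libraries (horizontal axis, log scale) for all genes tested in grey and the 10 G1 genes in red. Dotted lines mark 2-fold, and 11 genes beyond a log2 fold change of 3 are not drawn. CCNE1, CCNE2 and CDK2 lie near the lower edge of genes with like counts, and the other genes lie within the bulk or near its upper edge.

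The level at 50 nM lay between the DMSO and 100 nM levels for 7 of the 10 genes and for 56.4% of all genes tested. The exceptions were CCND2, CCND3 and CDKN1B, for which 50 nM was lowest. Both comparisons share the DMSO library, so the 50 nM and 100 nM libraries were also compared directly. From 50 nM to 100 nM, 3 of the 10 genes were lower and 3 higher by the exact binomial test, against 9.25% and 7.69% of all genes, and none reached 2-fold (0.497% of all genes). The 3 that were lower were CCNE2, with a log2 fold change of -0.23 (interval -0.32 to -0.14), CDK2 at -0.21 (-0.35 to -0.07) and CDK4 at -0.12 (-0.17 to -0.06). CCNE1 had a value of -0.20 (interval -0.37 to -0.03) that missed the threshold after adjustment over all genes. The 3 that were higher at 100 nM than at 50 nM were CDKN1A at 0.20, CDKN2C at 0.17 and CDK6 at 0.07.

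The genes around the G1 switch were described from lists that leave out the 10 genes above, and some genes stand in several lists. The counts of genes that rose or fell use the adjusted p with no fold threshold. By that rule 22.0% of all genes tested were lower and 21.1% higher at 100 nM, and 13.9% and 14.3% at 50 nM. These shares are not matched to the depth of the listed genes. Of 13 genes of the RB and E2F family, 9 fell at 100 nM, 1 rose and 3 did not pass, with a median log2 fold change of -0.23. E2F2, an activator E2F, had 740, 565 and 496 counts and fell by 0.63 on the log2 scale at 100 nM (interval -0.80 to -0.47). The value for E2F1 was -0.40, and the repressor E2Fs E2F7 and E2F8 had -0.59 and -0.58. RB1, the retinoblastoma protein, fell by 0.20 on the log2 scale, while RBL2, its relative p130 that represses E2F targets in resting cells, rose by a log2 fold change of 0.25 (interval 0.18 to 0.31).

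Of 22 E2F target genes of the G1/S transition, 19 fell at 100 nM, 0 rose and 3 did not pass, with a median of -0.22 beside -0.0023 over all genes. At 50 nM 19 of the 22 passed as lower too, with a median of -0.17. RRM2, a subunit of ribonucleotide reductase, was lowest, with 9704, 7234 and 6948 counts and a 100 nM value of -0.54 (interval -0.58 to -0.49). UNG, the uracil glycosylase, had the value nearest to 0, at -0.02 (interval -0.10 to 0.06). None of the 22 reached 1.5-fold, which CCNE1 and CCNE2 did. The list of 9 genes of CDK activation and of inhibitory CDK phosphorylation had 4 lower and 1 higher at 100 nM. In it CDC25A, the phosphatase that activates CDK2, had 2327, 1844 and 1495 counts and fell by 0.70 on the log2 scale at 100 nM (interval -0.79 to -0.60), and MNAT1, a subunit of the CDK-activating kinase, was the gene that rose, by 0.215. The others that fell were CCNH, PKMYT1 and CDC37, named here after their values were seen.

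Of 16 genes for the turnover of G1 regulators, 4 rose and 7 fell at 100 nM, with a median of -0.02. SKP2, the ubiquitin ligase subunit that targets p27 and p21, had 1288, 1031 and 908 counts and fell by 0.56 on the log2 scale (interval -0.69 to -0.44). FBXO4, a ligase subunit that acts on cyclin D1, had 448, 521 and 646 counts and a log2 fold change of 0.47 (interval 0.30 to 0.65). Of 19 p53 target genes other than CDKN1A, 10 rose and 2 fell at 100 nM, with a median of 0.22. At 50 nM, 5 of the 19 rose and 1 fell, with a median of 0.13. BBC3, which encodes the death factor PUMA, was highest at 100 nM, at 0.60 on the log2 scale, and TIGAR was lowest at -0.18. The value for MDM2, the ubiquitin ligase of p53, was 0.25 (interval 0.17 to 0.33).

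The FOXO target genes other than CDKN1B did not share a direction. Of 10 tested, 4 rose (TSC22D3, KLF2, KLF6 and RBL2) and 3 fell (TXNIP, IRS2 and CCNG2) at 100 nM, with a median of -0.12. TSC22D3 rose by 2.34 and TXNIP fell by 0.79 on the log2 scale, while KLF2 had 9, 23 and 30 counts. Of 8 tested genes of MYC and its targets, 3 rose (MYC, CAD and ODC1) and 4 fell (CDC25A, E2F2, LDHA and E2F1) at 100 nM, with a median of -0.19. Of the 15 other cyclins tested, 7 rose and 2 fell, from -0.39 for CCNG2 to 0.43 for CCNA1. Cyclin B1 (CCNB1), which acts in mitosis, had 4738, 4730 and 4794 counts and a 100 nM value of -0.04 (interval -0.10 to 0.02). Of the 16 other CDKs, 6 rose and 1 fell. The gene that fell was CDK1, by 0.12 on the log2 scale, and CDK18, with 38, 58 and 79 counts, had the highest value at 0.99.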

How the data were processed

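RNA of Molm13 cells was sequenced in 3 libraries, 1 per condition (DMSO, 50 nM and 100 nM pyrvinium, 6 h), and samples were grouped by their titles. One label gives the higher dose with its unit prefix missing, and the titles give nM. The authors built strand-specific mRNA libraries, aligned the reads to hg19 by means of Rsubread, and deposited raw counts per gene, which were used as deposited. Counting settings, including strand, are not given in the sources used here. A table of the authors' own EBSeq comparisons (posterior probabilities, fold changes and condition means) was not used. Nothing says that the libraries come from several cultures.

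Of 25702 Entrez identifiers, 23696 were given a RefSeq symbol. Library sizes were scaled by TMM (edgeR 4.0.16, R 4.3.3). A gene was tested if any library held 10 or more counts of it, which left 12879 genes. Each test was an exact binomial test of the counts in a pair of libraries, two-sided by doubling the smaller tail (scipy 1.17.1), with Benjamini-Hochberg adjustment over all genes tested. A quasi-likelihood fit needs replicates. Fold changes were computed after adding 0.5 counts to each library, with 95% Clopper-Pearson intervals. Level per length is CPM divided by the deposited gene length in kilobases, with exact Poisson intervals of the counts. Count ratios between genes have exact conditional intervals.

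The members, lists and rules were chosen with earlier results of these data known. All 10 members are named, as are genes whose exons overlap theirs. From each other list every gene called at 2-fold is named, whatever its counts. The highest and the lowest gene at 100 nM are named too, among those that reach 50 counts in the larger of the libraries compared. E2F1, E2F7, E2F8, RB1, MDM2, CCNB1, CDKN1C, CDKN2A, CDKN2B, CDKN3, KLF6, IRS2, CAD, ODC1 and LDHA were added after their values were seen, as were the reference set and the ratios. No genes of like pattern were sought, because 3 libraries give few independent differences. Promoter windows are the 250 bases before each start in the RefSeq table (GRCh38.p14), and no coordinates were converted. The steps were tested on simulated data. Alternatives tried were size factors of DESeq2 1.42.0, plain totals, TMM leaving out mitochondrial genes, other count minimums, 1.5-fold, 5 counts added, raw counts for shares, and an assumed spread in the exact test of edgeR.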

Additional observations from a re-analysis of the deposited data

How the results depend on the processing

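The direction and the side of the threshold of the 10 genes held in all 120 recomputed values, over the 3 comparisons. The settings were size factors of DESeq2, plain totals, TMM leaving out mitochondrial genes, and 5 counts added. Added counts enter the fold change and not the test, so under that setting the side of the threshold could not move. The scalings moved the log2 fold changes by at most 0.00499. With the fold threshold at 1.5, 3 genes were called at 100 nM in place of 0. The assumed spread between replicates mattered most. When the exact test of edgeR was given an assumed coefficient of variation of 0.1, with no fold threshold, 2 genes passed at 100 nM, 0 at 50 nM and 0 between the doses, and with 0.2 it was 0, 0 and 0. From raw counts, the share rose from DMSO to 100 nM by 3.53 percentage points for CCND2 and 7.6 for CDK6, in place of 2.36 and 3.67 per length, because the division by length weights a long gene less. No paired analysis was possible because each condition has 1 library. For the same reason no library could be left out. The depth limits CCND1, CDK18 and KLF2, with fewer than 100 counts in each library.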

Other observations

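Among the markers of other cell types, HBB, which encodes a hemoglobin chain, had 0, 16 and 0 counts in the DMSO, 50 nM and 100 nM libraries, while the other 4 red cell markers had at most 1 count in each library.

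CDK20, also called cell cycle-related kinase and singled out after its values were seen, had 538, 740 and 921 counts and rose by 0.49 on the log2 scale at 50 nM (interval 0.33 to 0.66) and by 0.72 at 100 nM (0.56 to 0.87), while the highest of the 10 G1 genes, CDKN1A, stood at 0.44.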
